A study of Mus musculus with 8 samples.

Results

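The genes described here supply and recycle the thiol antioxidants of the cell, namely the glutathione and thioredoxin systems, together with the superoxide dismutases, metal-binding proteins and regulators that work beside them. They were listed by name, 45 of them, without glutathione S-transferases of the Gst families, and all 45 were found among the 24033 genes of the deposited table. RNA was sequenced from the soleus, a calf muscle with many slow-twitch fibres, of mice aged 2 months. The 4 K15-SKO mice had the genotype Myogenin-Cre/+;K15F/F, in which Cre recombinase driven from the myogenin gene, active in skeletal muscle, meets floxed alleles of Klf15, which encodes a zinc finger transcription factor known from amino acid and lipid metabolism. The 4 MyoCre mice had the genotype Myogenin-Cre/+, so that Cre was present in both groups. The comparison asks whether the antioxidant supply of the muscle differs when Klf15 is deleted there.

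Hydrogen peroxide and lipid peroxides are reduced by peroxiredoxins and glutathione peroxidases, most of which hand the oxidation on to thioredoxin or glutathione. Thioredoxin reductase and glutathione reductase then restore these carriers with NADPH. The transcription factor NRF2, encoded by Nfe2l2, is held down by KEAP1 and, when released, switches on many of these genes through antioxidant response elements, whereas metallothioneins respond to zinc through metal response elements. In oxidative muscle these systems handle peroxide from mitochondria and from contraction.

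Of the 45 antioxidant genes, 0 were higher and 0 were lower in K15-SKO muscle. The background was low as well: at an adjusted p of 0.05, 0.097% of the 12376 tested genes were lower (12 genes) and 0% were higher. With genes kept that read 0 in every library of a genotype, these became 23 lower and 46 higher, with 0 of the 45 among them. At an unadjusted p of 0.05, 0 of the 45 were past the threshold, against 4.05% of all tested genes, and in 0 of the 45 did the libraries of the genotypes separate without overlap, against 2.76% of all tested genes for lower in K15-SKO and 0.267% for higher, 3.02% together. Under alternative settings 0 to 5 of the 45 had an unadjusted p under 0.05. The 5 came with library weights, where more of all tested genes passed as well, so the 4.05% is not their background. Values are FPKM, fragments per transcript length and sequencing depth, and were tested as log2(FPKM + 0.5) in limma with Benjamini-Hochberg adjustment over all tested genes. The added 0.5 shrinks fold changes of weakly detected genes. The adjusted p-values of the 45 genes ran from 0.963 to 1.00.

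Fold changes of the 45 genes spanned -0.54 for Mgst1 to 0.49 for Txnip on the log2 scale, with a median of -0.08. The median over all tested genes was -0.12, and 21 of the 45 lay below it and 24 above. Median-of-ratios scaling of the libraries moved the median of all genes to 0.00 and that of the 45 to 0.04; 31 of the 45 fold changes were negative as deposited and 20 after that scaling. In 40 of the 45, or 88.9%, the 95% interval of the fold change lay within 2-fold in either direction, a share of 92.4% among all tested genes. The exceptions, with wider or more displaced intervals, were Gpx7, Txnip, Mgst1, Mt1 and Mt2.

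**Figure D1:**
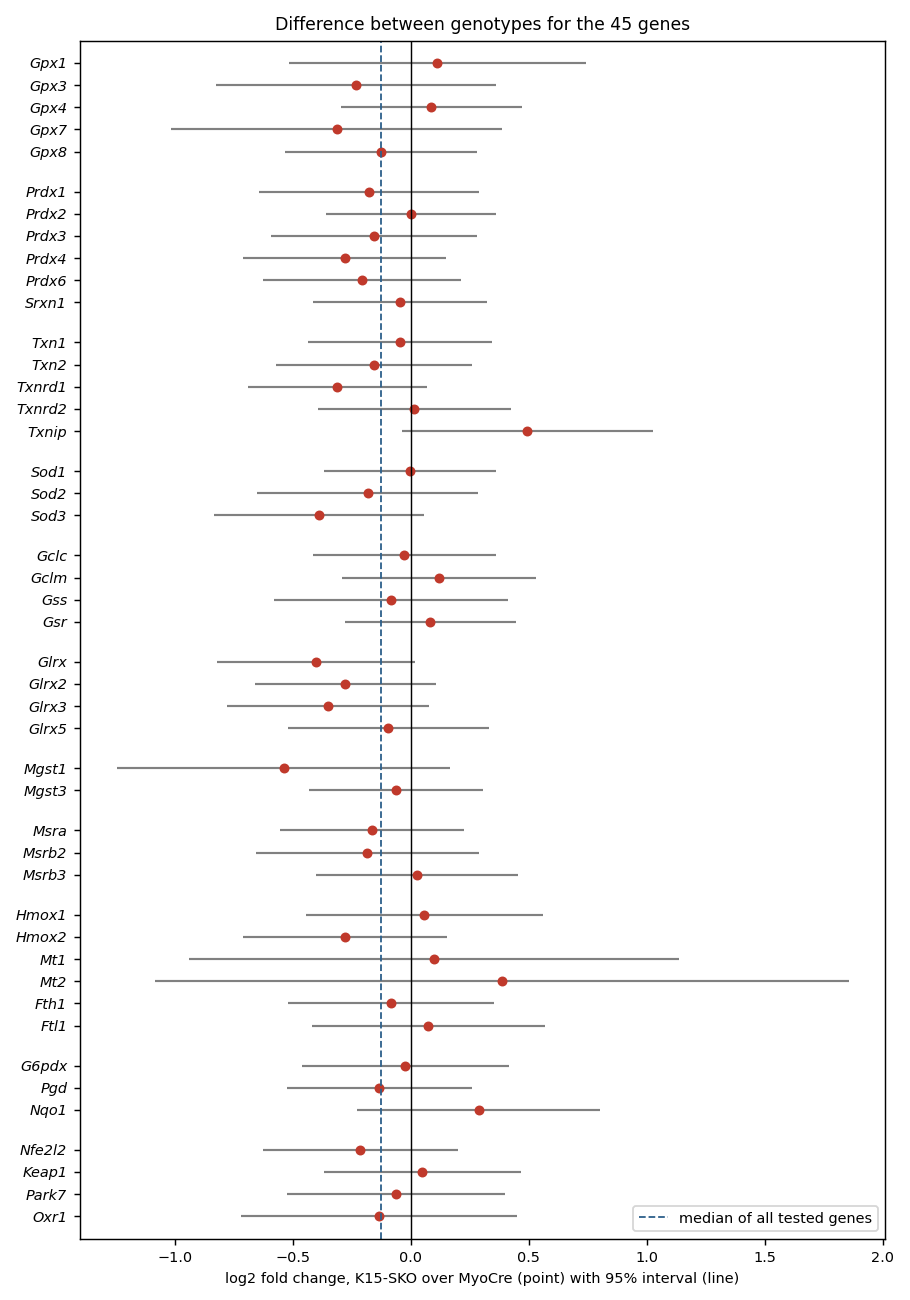
Log2 fold change, K15-SKO over MyoCre, of each of the 45 genes (points) with its 95% interval (lines), grouped by role, and the median of all tested genes (dashed line, at -0.12). Points run from -0.54 for Mgst1 to 0.49 for Txnip, and every interval includes 0.

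The check of the labels and of the tissue touches every comparison. Levels of Klf15 were 15.7, 19.3, 16.7 and 13.1 FPKM in K15-SKO muscle, against 44.5, 49.8, 49.1 and 22.8 FPKM in the MyoCre libraries, a log2 fold change of -1.28 (SE 0.24, limma adjusted p = 0.0943), lower in 4 of 4 K15-SKO libraries. Of 15 muscle markers 14 were in the table, and their summed level was 19074 to 34832 FPKM in K15-SKO and 17899 to 30848 FPKM in MyoCre libraries. K15-SKO replicate 3 had the smallest scaling factor by median of ratios, 0.80, with 0.96 to 1.15 elsewhere. MyoCre replicate 2 was the only library with transcripts of the Y-linked genes Ddx3y, Eif2s3y, Kdm5d and Uty. Xist, an RNA of female cells, was at 0.01 FPKM in that library and at 21.0 to 50.3 FPKM in the others. By these genes MyoCre replicate 2 reads as male and the others as female, so sex was not balanced between genotypes. The part of sex in the values was not tested. MyoCre replicate 2 also had 20928 genes above 0 FPKM, against 19066 to 19544 in the others. In bulk tissue, fewer cells of a type and less RNA per cell cannot be told apart, and RNA of cells without Cre is included in every value.

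Promoter stretches that match the letters of both response elements are shown here because NRF2 and zinc are known to act through such elements. RefSeq promoter windows on GRCm38, 250 bases before to 50 bases after a transcription start, matched 38 of the 45 genes. The core of the antioxidant response element, TGACNNNGC searched on both strands, occurred in a window of 11 of these 38 genes (28.9%) and of 14.0% of all genes with a window. Nqo1, Gclc and Hmox1 were not among the 11, whether for want of the core or of a window. Besides the 5 printed below, the core occurred in Msrb2, Pgd, Mgst1, Mt2, Sod1 and G6pdx. The windows of 5 of the 11, chosen as well-known NRF2-regulated genes, read as follows, with the core in capitals and up to 10 bases on either side.
Nfe2l2, chr2:75704885-75704913, minus strand: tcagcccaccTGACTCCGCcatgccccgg
Gclm, chr3:122245413-122245441, plus strand: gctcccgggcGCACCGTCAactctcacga
Prdx1, chr4:116685456-116685484, plus strand: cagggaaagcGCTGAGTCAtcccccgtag
Txnrd1, chr10:82859104-82859132, plus strand: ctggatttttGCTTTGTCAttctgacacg
Srxn1, chr2:152105542-152105570, plus strand: gcagtgggcaGCTAGGTCAgagtgagaca

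The core reads forwards in Nfe2l2 and as its reverse complement in Gclm, Prdx1, Txnrd1 and Srxn1. The 11 genes with the core had log2 fold changes from -0.54 to 0.39 with a median of -0.13, and the other 27 genes with a window had -0.40 to 0.49 with a median of -0.08. A match is a description of letters and not a binding site.

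The core of the metal response element, TGCACNC or TGCGCNC searched on both strands, occurred in a window of 13 of the 38 genes (34.2%). The share was 28.2% of all genes with a window. It occurred 3 or more times in a window of 3 of the 38 genes (7.89%) and of 2.27% of all genes with a window. The 2 metallothionein genes were among them, 3 matches in Mt1 and 4 in Mt2, and they lie side by side on chromosome 8. Their windows are shown whole because their levels moved together from library to library, with every match in capitals.
Mt1, chr8:94178839-94179138, plus strand: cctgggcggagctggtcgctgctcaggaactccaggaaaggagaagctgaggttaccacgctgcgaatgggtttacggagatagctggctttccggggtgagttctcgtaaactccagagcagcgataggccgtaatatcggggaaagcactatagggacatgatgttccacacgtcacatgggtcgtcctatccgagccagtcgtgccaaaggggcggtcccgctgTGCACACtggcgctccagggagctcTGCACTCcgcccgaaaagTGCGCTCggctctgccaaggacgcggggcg
Mt2, chr8:94172368-94172667, plus strand: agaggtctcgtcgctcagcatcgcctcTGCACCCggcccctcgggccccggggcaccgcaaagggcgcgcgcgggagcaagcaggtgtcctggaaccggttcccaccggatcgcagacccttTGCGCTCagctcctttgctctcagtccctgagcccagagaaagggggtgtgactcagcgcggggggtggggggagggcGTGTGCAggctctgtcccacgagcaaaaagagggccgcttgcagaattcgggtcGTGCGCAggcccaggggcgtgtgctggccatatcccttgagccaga

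Metallothioneins, small cysteine-rich proteins that hold zinc and copper, were the most variable of the 45 genes. Mt2 had 9.998, 49.4, 55.4 and 15.7 FPKM in K15-SKO libraries 1 to 4, against 14.8, 28.5, 28.8 and 11.96 FPKM in MyoCre libraries 1 to 4. Mt1 had 43.1, 138, 198 and 61.5 FPKM in K15-SKO, against 76.5, 92.9, 121 and 64.0 FPKM in MyoCre libraries. In both genotypes libraries 2 and 3 were the high ones for both genes, and the genotypes overlapped. The within-genotype SD on the log2 scale was 0.96 for Mt2 and 0.77 for Mt1, above 98.4% and 97.7% of all tested genes. The log2 fold change was 0.39 for Mt2 (SE 0.62, 95% interval -1.08 to 1.86) and 0.10 for Mt1 (SE 0.46, interval -0.94 to 1.14). Leaving out 1 library at a time moved it over 0.02 to 0.83 for Mt2 and -0.26 to 0.46 for Mt1, the lowest without K15-SKO replicate 3 and the highest without K15-SKO replicate 1. With library weights both turned negative, to -0.43 for Mt2 and -0.60 for Mt1.

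The haem and iron genes also overlapped between genotypes. Fth1, the ferritin heavy chain that stores iron, was the most abundant of the 45 genes per length. It had 606, 602, 497 and 474 FPKM in K15-SKO libraries, against 697, 624, 617 and 403 FPKM in MyoCre libraries, with the lowest value in a MyoCre library and the K15-SKO libraries inside the MyoCre range. The fitted difference was -0.08 on the log2 scale (SE 0.20, limma adjusted p = 0.968), lower than the MyoCre mean in 2 of 4 K15-SKO libraries, and its sign turned under median-of-ratios scaling (0.055). The light chain Ftl1 averaged 100.5 ± 24.0 FPKM in K15-SKO and 96.4 ± 28.5 FPKM in MyoCre muscle (SD, n = 4 each). Hmox1, the inducible haem oxygenase that breaks haem down, averaged 4.05 ± 1.19 FPKM in K15-SKO and 3.88 ± 1.16 FPKM in MyoCre muscle. Its constitutive counterpart Hmox2 had 16.2, 18.4, 11.4 and 13.6 FPKM in K15-SKO, against 17.9, 21.8, 18.8 and 14.0 FPKM in MyoCre libraries, overlapping (log2 fold change -0.28, SE 0.20, limma adjusted p = 0.963).

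**Figure D2:**
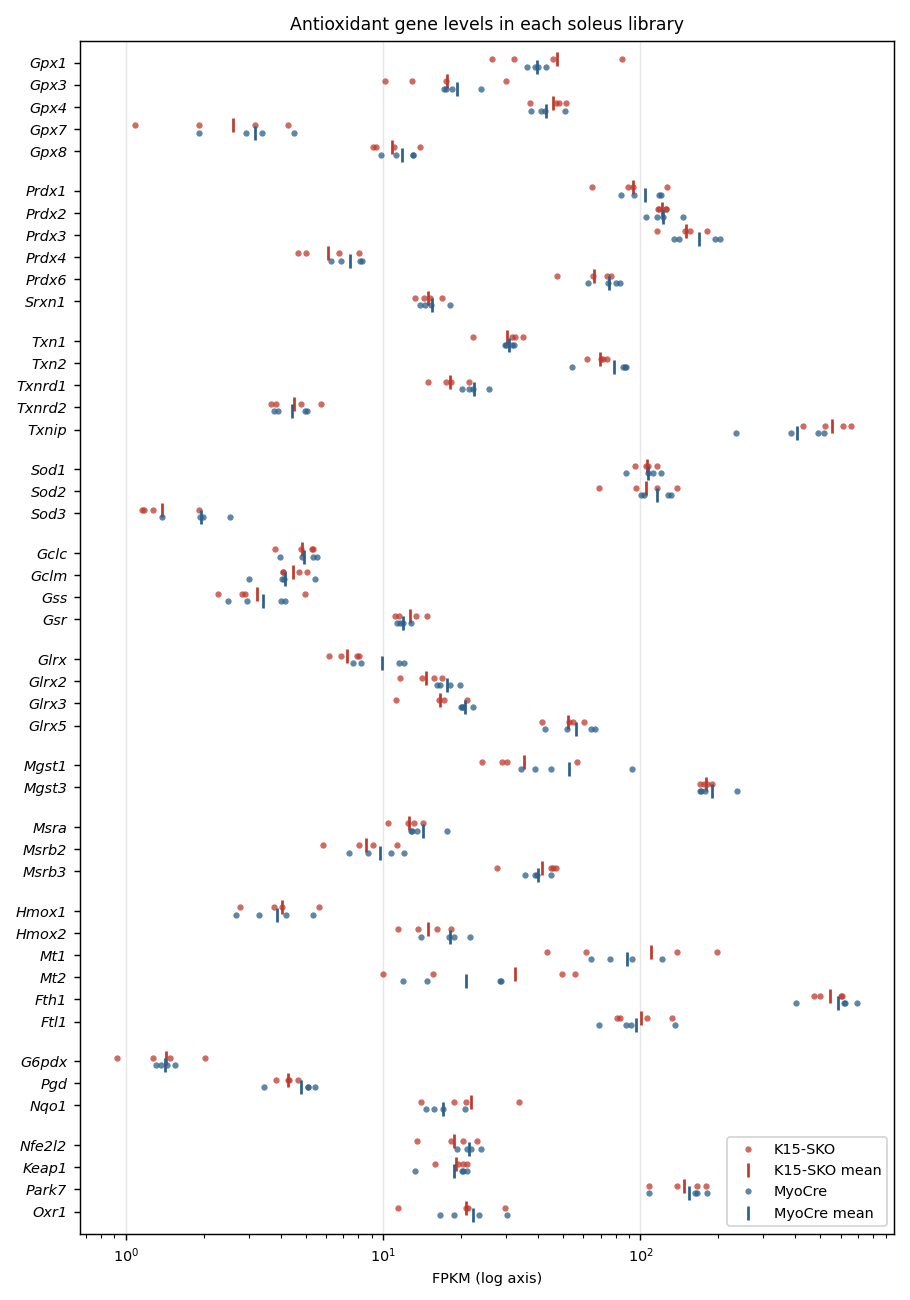
FPKM of each of the 45 genes in every library on a log axis (points) with the genotype means (ticks), K15-SKO above MyoCre within each row, grouped by role. Mean levels run from 1.42 FPKM for G6pdx to 565 FPKM for Fth1, and the genotypes overlap in every row.

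In the thioredoxin system the gene with the largest positive fold change was Txnip, whose protein binds thioredoxin and blocks it and which is known for its induction by glucose. Txnip had 522, 611, 428 and 658 FPKM in K15-SKO libraries, against 517, 489, 235 and 384 FPKM in MyoCre libraries. The lowest value, 235 FPKM, was that of MyoCre replicate 3, and the K15-SKO value of 428 FPKM fell inside the MyoCre range. Between genotypes the log2 fold change came to 0.49 (SE 0.25, 95% interval -0.04 to 1.03, limma adjusted p = 0.963), which lay 0.62 above the all-gene median. All 4 K15-SKO libraries lay above the MyoCre mean of 406 FPKM. Leaving out 1 library at a time gave log2 fold changes of 0.25, without MyoCre replicate 3, to 0.63, without MyoCre replicate 1. Txnip shares exon positions with Gm15441, an antisense gene, and without a stated strand setting their reads cannot be told apart.

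Thioredoxin and its reductases had fold changes of -0.31 to 0.01. Cytosolic thioredoxin, Txn1, averaged 30.3 ± 5.57 FPKM in K15-SKO and 30.9 ± 1.197 FPKM in MyoCre muscle, and mitochondrial Txn2 69.4 ± 5.18 and 78.7 ± 16.2 FPKM in K15-SKO and MyoCre muscle. Txnrd1, the cytosolic selenoprotein that reduces thioredoxin, had 21.6, 17.6, 14.9 and 18.3 FPKM in K15-SKO, against 21.5, 25.8, 22.3 and 20.3 FPKM in MyoCre libraries. Of its K15-SKO values 3 lay below every MyoCre value and 1, at 21.6 FPKM, did not (log2 fold change -0.31, SE 0.18, limma adjusted p = 0.963). The mitochondrial reductase Txnrd2 averaged 4.499 ± 0.952 FPKM in K15-SKO and 4.42 ± 0.68 FPKM in MyoCre muscle.

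Peroxiredoxins, abundant peroxidases most of which thioredoxin recharges, overlapped between genotypes in all 5 cases, as did sulfiredoxin. Prdx2, the cytosolic enzyme that is also plentiful in red blood cells, had 117, 125, 118 and 126 FPKM in K15-SKO libraries, against 105, 116, 147 and 122 FPKM in MyoCre libraries. Its K15-SKO libraries lay inside the MyoCre range, and the log2 difference came to 0.00 (SE 0.17, 95% interval -0.36 to 0.36, limma adjusted p = 1.00). Mitochondrial Prdx3 had 149, 156, 116 and 182 FPKM in K15-SKO, against 141, 135, 203 and 194 FPKM in MyoCre libraries, with the lowest value in a K15-SKO library and the highest in a MyoCre library (log2 fold change -0.16, SE 0.20, limma adjusted p = 0.963). Prdx6, which reduces phospholipid peroxides, had 74.2, 65.3, 47.4 and 77.0 FPKM in K15-SKO, against 62.5, 74.9, 83.5 and 80.0 FPKM in MyoCre libraries (log2 fold change -0.20, SE 0.20, limma adjusted p = 0.963). Prdx4, of the endoplasmic reticulum, had 4.99, 8.02, 6.74 and 4.65 FPKM in K15-SKO, against 6.88, 8.10, 6.29 and 8.30 FPKM in MyoCre libraries, again overlapping (log2 fold change -0.28, SE 0.20, limma adjusted p = 0.963). Cytosolic Prdx1 averaged 93.5 ± 25.4 FPKM in K15-SKO and 104 ± 17.8 FPKM in MyoCre muscle. Srxn1, the sulfiredoxin that repairs overoxidised peroxiredoxins, averaged 14.97 ± 1.54 FPKM in K15-SKO and 15.5 ± 1.93 FPKM in MyoCre muscle.

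Glutathione peroxidases, most of which use glutathione to reduce peroxides, varied between libraries, Gpx1 and Gpx7 most. Cytosolic Gpx1, a selenoprotein also abundant in red blood cells, had 26.5, 45.7, 84.7 and 32.1 FPKM in K15-SKO libraries, against 38.9, 43.0, 36.2 and 39.8 FPKM in MyoCre libraries. The highest and the lowest values were both in K15-SKO muscle, and the SD was 26.2 FPKM in K15-SKO and 2.81 FPKM in MyoCre. The log2 fold change was 0.11 (SE 0.29), -0.21 without K15-SKO replicate 3, 0.34 without K15-SKO replicate 1 and -0.36 with library weights. Gpx4, which protects membrane lipids, averaged 45.8 ± 6.07 FPKM in K15-SKO and 43.0 ± 5.69 FPKM in MyoCre muscle. Secreted Gpx3 averaged 17.6 ± 8.79 and 19.3 ± 3.11 FPKM in K15-SKO and MyoCre muscle. Of the enzymes of the endoplasmic reticulum, Gpx7 averaged 2.61 ± 1.40 FPKM in K15-SKO and 3.18 ± 1.06 FPKM in MyoCre muscle. Gpx8 averaged 10.8 ± 2.20 FPKM in K15-SKO and 11.8 ± 1.59 FPKM in MyoCre muscle.

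**Figure D3:**
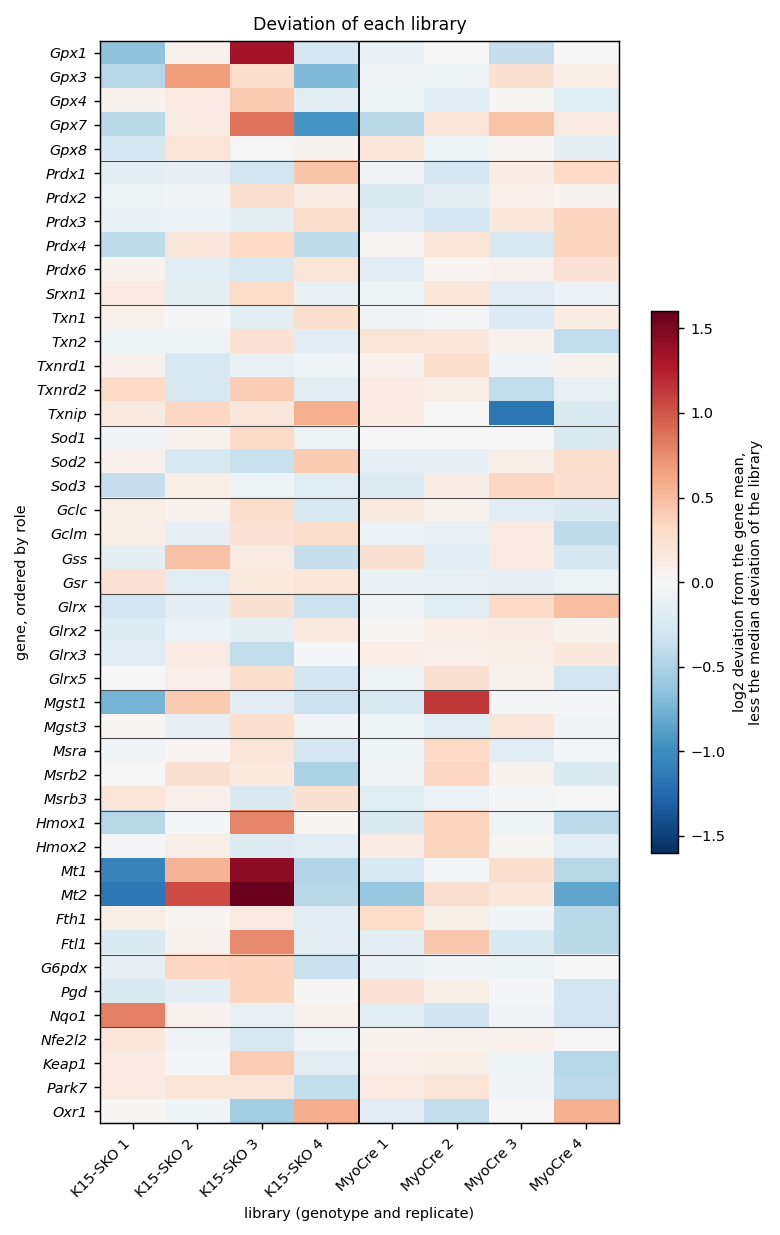
Log2 deviation of each library from the mean of each gene over the 8 libraries, less the median deviation of that library over all tested genes, with K15-SKO libraries left of MyoCre libraries. Mt1, Mt2, Gpx1, Hmox1, Ftl1 and Gpx7 are deepest red in K15-SKO replicate 3, Mgst1 in MyoCre replicate 2 and Nqo1 in K15-SKO replicate 1, and Txnip is deepest blue in MyoCre replicate 3.

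The high values in K15-SKO replicate 3 came with markers of other cells. That library had the highest level of 4 of the 45 genes, Gpx1, Hmox1, Mt1 and Mt2, and the lowest of 16. Of 10 erythroid markers 9 were in the table and their summed level was 322, 581, 2045 and 337 FPKM in K15-SKO libraries, against 285, 461, 303 and 400.2 FPKM in MyoCre libraries, while the membrane protein gene Epb42 was at 0 in K15-SKO replicate 4 and in MyoCre replicates 1 and 3. The summed level of 10 endothelial markers was also highest in K15-SKO replicate 3, with 299 FPKM against 185 to 239 FPKM in the other libraries. None of these markers was at 0. Egfl7 gave 90.8 FPKM of it, and Pecam1, Tie1, Esam, Egfl7 and Cldn5 were highest there. Cdh5 and Emcn were second highest there, Kdr and Tek lay in the middle, and Flt1, at 10.6 FPKM, was lowest there. The summed level of 10 adipocyte markers was 592 FPKM there, against 332 to 459 FPKM elsewhere, but Fabp4, which capillary endothelium also makes, gave 458 FPKM of it. The adipocyte genes Adipoq, at 2.86 FPKM, and Plin1, at 1.14 FPKM, were second lowest there, as was Lep, at 0.104 FPKM. Adrb3 was at 0 there and in K15-SKO replicate 2. Cidec went the other way, at 3.69 FPKM, exceeded only in K15-SKO replicate 2, at 4.17 FPKM. Plin4, at 93.6 FPKM, and Slc7a10, at 0.613 FPKM, lay in the upper part of their ranges, and Cfd and Retn lay in the middle. Macrophage markers summed to 44.6 to 107 FPKM in K15-SKO and 89.6 to 100.2 FPKM in MyoCre libraries; the highest sum was again in K15-SKO replicate 3, where the complement genes C1qa, C1qb and C1qc were highest and Mrc1, at 4.26 FPKM, second lowest. All 10 macrophage markers had negative fold changes, with a median of -0.38, and 0 passed the test. Of all 12376 tested genes 9589 had negative fold changes, with a median of -0.12. All 10 fibroblast and matrix markers were negative too, with a median of -0.41, whereas 8 of the 10 endothelial markers were positive, with a median of 0.17. The part of these cells in the values of Gpx1, Hmox1, Mt1 and Mt2 was not tested.

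Genes of glutathione supply had small fold changes. Gclc, the catalytic subunit of glutamate-cysteine ligase, which makes the first bond of glutathione, averaged 4.81 ± 0.72 FPKM in K15-SKO and 4.91 ± 0.69 FPKM in MyoCre muscle. Its modifier subunit Gclm averaged 4.47 ± 0.48 and 4.14 ± 0.99 FPKM, and Gss, the synthetase that adds glycine, 3.24 ± 1.17 and 3.40 ± 0.80 FPKM, in K15-SKO and MyoCre muscle. Gsr, the reductase that returns oxidised glutathione to its reduced form, averaged 12.7 ± 1.71 FPKM in K15-SKO and 11.9 ± 0.66 FPKM in MyoCre muscle, and only 4.15% of tested genes varied as little or less within genotypes. Log2 fold changes of these 4 genes ran from -0.08 to 0.12, all of them above the median of all genes. Exons of Gclm and Gss overlap those of other genes on the opposite strand. Exons of Gclm also overlap Gm6061, a transcribed processed pseudogene on the same strand.

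Glutaredoxins, which use glutathione to reduce protein disulfides or, for Glrx3 and Glrx5, to carry iron-sulfur clusters, all had negative fold changes, with a median of -0.31 and a range of -0.40 to -0.10. Of all 12376 tested genes 9589 were negative as well, with a median of -0.12, and Glrx5 lay above that median. After median-of-ratios scaling 3 of the 4 glutaredoxins stayed negative, with a median of -0.18. Cytosolic Glrx had the smallest p of the 45 genes: 6.83, 7.89, 8.04 and 6.16 FPKM in K15-SKO, against 8.19, 7.62, 12.1 and 11.5 FPKM in MyoCre libraries. Only the MyoCre value of 7.62 FPKM fell inside the K15-SKO range (log2 fold change -0.40, SE 0.20, 95% interval -0.82 to 0.02, limma adjusted p = 0.963). Glrx3 had 16.5, 21.2, 11.2 and 17.3 FPKM in K15-SKO, against 20.1, 20.4, 22.3 and 20.2 FPKM in MyoCre libraries (log2 fold change -0.35, SE 0.20, limma adjusted p = 0.963). Mitochondrial Glrx2 had 14.1, 15.8, 11.7 and 16.9 FPKM in K15-SKO, against 16.6, 18.1, 19.9 and 16.2 FPKM in MyoCre libraries (log2 fold change -0.28, SE 0.18, limma adjusted p = 0.963). Without K15-SKO replicate 3 the fold change of Glrx3 was -0.18, and without K15-SKO replicate 2 it was -0.48. For Glrx2 and Glrx3 alike 3 of the 4 K15-SKO libraries lay below every MyoCre library. Glrx5 averaged 52.3 ± 7.93 FPKM in K15-SKO and 56.2 ± 11.2 FPKM in MyoCre muscle.

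The microsomal enzymes with glutathione transferase activity differed in how steady they were. Mgst1 had the largest negative fold change of the 45 genes, with 24.3, 56.8, 29.1 and 30.2 FPKM in K15-SKO, against 34.2, 93.0, 44.7 and 38.8 FPKM in MyoCre libraries. In each genotype replicate 2 was highest, and the groups overlapped (log2 fold change -0.54, SE 0.33, 95% interval -1.25 to 0.17, limma adjusted p = 0.963). MyoCre replicate 2, at 93.0 FPKM, is the library that reads as male by its Y-linked transcripts and Xist. Without MyoCre replicate 2 the log2 fold change of Mgst1 was -0.23. Without K15-SKO replicate 2 it was -0.79 (limma adjusted p = 0.734). At each replicate number the K15-SKO value of Mgst1 was the lower, but the numbers were not taken as pairs, so this order is a description only. In the alternative fit with the replicate number as a block Mgst1 had the smallest p of the 45 genes (limma adjusted p = 0.488). Mgst3 was the third most abundant of the 45 genes, with 189.9, 177, 182 and 171 FPKM in K15-SKO, against 179, 170.4, 237 and 172 FPKM in MyoCre libraries. Its K15-SKO libraries all lay inside the MyoCre range (log2 fold change -0.06, SE 0.17, limma adjusted p = 0.969), and its sign turned under median-of-ratios scaling (0.08).

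**Figure D4:**
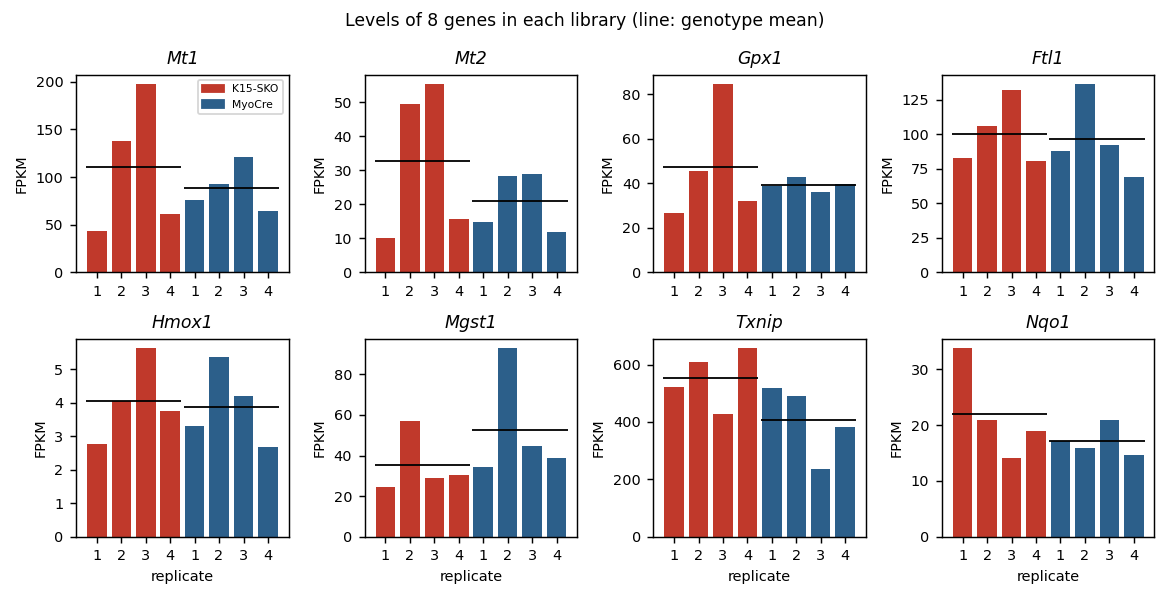
FPKM of 8 genes in each library as bars from 0, K15-SKO replicates 1 to 4 left of MyoCre replicates 1 to 4, with a line at each genotype mean. Mt1 and Mt2 are high in replicates 2 and 3 of both genotypes, Gpx1 reaches 84.7 FPKM in K15-SKO replicate 3 and Mgst1 93.0 FPKM in MyoCre replicate 2.

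Superoxide dismutases, which turn superoxide into hydrogen peroxide, split by compartment in level. Cytosolic Sod1 averaged 106 ± 8.44 FPKM in K15-SKO and 107 ± 13.7 FPKM in MyoCre muscle, and mitochondrial Sod2 105 ± 29.5 FPKM in K15-SKO and 116 ± 16.0 FPKM in MyoCre muscle. Extracellular Sod3 was far lower, with 1.17, 1.92, 1.15 and 1.27 FPKM in K15-SKO, against 1.38, 1.93, 2.54 and 1.99 FPKM in MyoCre libraries. Of its K15-SKO values 3 lay below every MyoCre value, and that of replicate 2 did not (log2 fold change -0.39, SE 0.21, limma adjusted p = 0.963). Fibroblast and matrix markers, from cells that also make secreted enzymes, had a summed level of 461 to 821 FPKM in K15-SKO and 637 to 1093 FPKM in MyoCre libraries, with none of the 10 at 0, and their part in the Sod3 values was not tested.

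Methionine sulfoxide reductases, which repair oxidised methionine in proteins, overlapped between genotypes. Msra averaged 12.6 ± 1.61 FPKM in K15-SKO and 14.2 ± 2.32 FPKM in MyoCre muscle, Msrb2 8.57 ± 2.25 FPKM in K15-SKO and 9.71 ± 2.06 FPKM in MyoCre, and Msrb3 41.3 ± 9.07 FPKM in K15-SKO and 39.8 ± 3.81 FPKM in MyoCre muscle. In NADPH supply, the pentose phosphate dehydrogenase G6pdx was the lowest of the 45 genes, at 1.42 ± 0.46 FPKM in K15-SKO and 1.42 ± 0.105 FPKM in MyoCre muscle, and the next enzyme Pgd averaged 4.26 ± 0.34 FPKM in K15-SKO and 4.77 ± 0.90 FPKM in MyoCre muscle. Nqo1, a quinone reductase widely used as a readout of NRF2, had 33.8, 20.9, 14.0 and 18.9 FPKM in K15-SKO, against 17.1, 15.8, 20.9 and 14.7 FPKM in MyoCre libraries. Its highest and its lowest value were both in K15-SKO muscle (log2 fold change 0.29, SE 0.24, 95% interval -0.23 to 0.80, limma adjusted p = 0.963). It was 0.06 without K15-SKO replicate 1 and 0.47 without K15-SKO replicate 3.

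Levels of the regulators overlapped between genotypes. Nfe2l2 had 23.1, 20.5, 13.5 and 18.3 FPKM in K15-SKO, against 21.2, 21.9, 23.9 and 19.3 FPKM in MyoCre libraries, the lowest being K15-SKO replicate 3, without which the log2 fold change was -0.07 (with it, log2 fold change -0.21, SE 0.19, limma adjusted p = 0.963). Keap1 averaged 19.3 ± 2.30 FPKM in K15-SKO and 18.8 ± 3.72 FPKM in MyoCre muscle. Park7, the DJ-1 protein gene linked to oxidative stress and to Parkinson's disease, had 166, 179, 138 and 108 FPKM in K15-SKO, against 165, 181, 163 and 108 FPKM in MyoCre libraries. Both genotypes had their highest Park7 level in replicate 2 and their lowest in replicate 4 (log2 fold change -0.06, SE 0.22, limma adjusted p = 0.978), and the sign turned under median-of-ratios scaling (0.08). Oxr1, known for protection against oxidative damage, averaged 20.9 ± 7.55 FPKM in K15-SKO and 22.4 ± 6.08 FPKM in MyoCre muscle.

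Further genes of thiol and NADPH metabolism were also compared. Of 49 listed, among them catalase, selenoproteins, glutathione-degrading enzymes, NADPH-making dehydrogenases and partners of NRF2, 48 were in the table, 45 were tested, 0 were higher and 0 lower, and the median log2 fold change was -0.12, equal at this precision to that of all genes. At an unadjusted p of 0.05, 1 was higher and 1 lower, against 0.549% and 3.5% of all tested genes. Ggt5, a gamma-glutamyl transferase that acts on glutathione conjugates, had 3.77, 5.58, 3.31 and 3.41 FPKM in K15-SKO, against 3.40, 2.78, 1.68 and 2.77 FPKM in MyoCre libraries (log2 fold change 0.52, SE 0.22, limma adjusted p = 0.963). Idh1, the cytosolic isocitrate dehydrogenase that makes NADPH, had 14.5, 19.4, 12.1 and 15.4 FPKM in K15-SKO, against 19.8, 15.9, 30.4 and 23.5 FPKM in MyoCre libraries (log2 fold change -0.51, SE 0.22, limma adjusted p = 0.963). Both overlapped by a single library on each side. Oplah, which opens the oxoproline ring formed in glutathione turnover, averaged 13.1 ± 2.04 FPKM in K15-SKO and 16.8 ± 2.21 FPKM in MyoCre muscle (log2 fold change -0.35, SE 0.18, limma adjusted p = 0.963), and the quinone reductase Nqo2 averaged 5.89 ± 1.52 FPKM in K15-SKO and 7.80 ± 1.55 FPKM in MyoCre muscle (log2 fold change -0.40, SE 0.22, limma adjusted p = 0.963).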

How the data were processed

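Total RNA from 8 soleus muscles, 4 of each genotype, was sequenced. The authors deposited 1 table of values per gene and library, taken here as FPKM because the submitters' processing notes name STAR, Cufflinks and Cuffdiff with build mm10 and the values are not whole; no source used here gives versions, annotation release, strand setting or filters. Depth is not given with these values, and library sums ran from 519884 to 652275 FPKM. Columns that belong to no sample numbered 0. The series' design gives 4 mice a genotype; that each library is a separate mouse is not stated further, and p-values measure the spread between these samples.

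The filter kept genes averaging 1 FPKM or more. Values entered limma (version 3.58.1, with R version 4.3.3) as log2(FPKM + 0.5), genotype being the single term, with a mean trend and robust estimation; tests were two-sided. Of such genes 159 are at 0 in all libraries of a genotype, which can be a failed estimate, and they were left out. All 45 genes passed the filter, the lowest at 1.42 FPKM. Full statistics are given for the 12 genes with the smallest p and the 6 with the highest level, values for the rest. Genes and lists were chosen with earlier results of these data known. Gene positions and overlaps come from GENCODE M21 on GRCm38, matched by gene ID, and exons of 10 of the 45 genes overlap another gene. Reads of ferritin and peroxiredoxin genes and of Gpx4 can also match pseudogenes.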

Additional observations from a re-analysis of the deposited data

Results flagged for a closer look

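A library was taken as standing apart from the other 3 of its genotype when its gap to the nearest one was past Dixon's 95% critical value. Over 100 gene and genotype groups there were 7 such libraries, and about 5 arise by chance, since the limit lets through 1 group in 20. In K15-SKO muscle these were Sod3 in replicate 2, at 1.92 FPKM against 1.15 to 1.27 FPKM in the other K15-SKO libraries, and Msrb3 in replicate 3, at 27.8 FPKM against 44.9 to 46.9 FPKM. In MyoCre muscle Txn2 had 54.4 FPKM in replicate 4 against 85.8 to 87.7 FPKM in the other MyoCre libraries, and Keap1 had 13.3 FPKM in the same replicate against 20.3 to 21.2 FPKM. MyoCre replicate 3 had 22.3 FPKM of Glrx3 against 20.1 to 20.4 FPKM, and 237 FPKM of Mgst3 against 170.4 to 179 FPKM. Msra had 17.7 FPKM in MyoCre replicate 2 against 12.8 to 13.5 FPKM.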

How the results depend on the processing

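The count of antioxidant genes past the threshold was 0 in all 18 alternative fits, and so was that of the other redox genes. The smallest adjusted p among the 45 was 0.127, for Nqo1 with library weights. At an unadjusted p under 0.05, 0 of the 45 stood as reported. With library weights there were 5 (1349 of all genes past the threshold without adjustment), and without K15-SKO replicate 2 there were 4 (682). With the replicate block there were 2 (702). There were also 2 without K15-SKO replicate 3 (530), without MyoCre replicate 1 (433) and without MyoCre replicate 2 (478). With median-of-ratios scaling (440) and with quantile normalization (444) there was 1, Txnip. The number of all genes past the threshold, 12 as reported, was 0 with no filter on low values (890 at unadjusted p under 0.05, limma) and 0 with quantile normalization (444), 3 with median-of-ratios scaling, 3 without robust estimation, 91 with library weights, 69 with the genes listed at 0 kept (23 lower, 46 higher), and 0 to 14 when a library was left out, with 0 without K15-SKO replicate 3 (530) and 0 without MyoCre replicate 3 (326), 2 without MyoCre replicate 1, 5 without K15-SKO replicate 1 and 7 without MyoCre replicate 4. With the replicate number as a block it was 24. Same-numbered libraries had deviations that correlated at 0.15, 0.34, 0.01 and 0.34, against -0.32 to 0.17 for differently numbered ones. Since 1 of the 4 same-numbered values was under 0.1 the numbers were not taken as pairs. K15-SKO replicate 3 correlated best with MyoCre replicate 2. Klf15 passed in 4 of the 18. Of the 45 signs, 11 turned with median-of-ratios scaling, 11 with quantile normalization, 11 with library weights and 21 in at least 1 fit without a library. Among the 17 genes with full statistics, signs turned for Mgst3 (0.0755), Fth1 (0.0548) and Park7 (0.0758) with median-of-ratios scaling, for the same genes (0.0593, 0.0189 and 0.0590) with quantile normalization, and for the log2 fold change of Prdx6 (0.0171) and the log2 fold change of Nfe2l2 (0.00735) with library weights. Among these 17, over left-out libraries, Prdx2, Mgst3, Fth1 and Park7 changed sign, over -0.0680 to 0.0910, -0.109 to 0.0488, -0.252 to 0.0104 and -0.223 to 0.0803 in that order. Among the other 28 the widest turns with library weights were those of Mt1, Mt2 and Gpx1. Without K15-SKO replicate 3 the log2 fold changes of Hmox2 and Nqo2 were -0.16 and -0.21. The cause was not tested. Depth is unknown, so counting error of low genes such as G6pdx and Sod3 was not separated.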
